A study of Mus musculus with 8 samples.

Results

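The 9 genes described here, Rora, Maf, Sox13, Zbtb16, Il23r, Cd163l1, Blk, Il17a and Pxdc1, are genes of innate-like T cells of the IL-17 type. Of these, 8 were taken as known genes of such cells and Pxdc1 was added because it was higher in IL-18Rαhi libraries of this same experiment. They were found by gene name among the 47493 genes of the deposited table. As the choice was made with the contrast between the fractions in view, the values of these 9 genes in that contrast are given as a description, with no test.

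Endogenous CD8+ T cells, defined by the absence of Thy1.1, were purified with Thy1.1 beads and a negative-selection kit for CD8+ T cells from inguinal lymph nodes and spleen of 4 female C57BL/6 mice aged 6 to 8 weeks. Every mouse carried B16F10 melanoma (200000 cells on day 0) and had been given cyclophosphamide (300 mg/kg, day 3), Thy1.1 Pmel-1 cells (2000000, day 5), human IL-2 (10000 IU a day for 3 days from day 5) and anti-CD4 antibody (200 μg a week for 3 weeks from day 10). On day 25 the cells of each mouse were passed over a magnetic column with an antibody to IL-18Rα. The retained cells (IL-18Rαhi, n = 4 libraries) were compared with those that ran through (flow-through, n = 4), so all treatments are shared by both groups and no untreated mouse enters the comparison. Such a kit retains cells other than CD8+ T cells on the column. Which antibodies it held is not given in the sources used here, so whether it removed γδ T cells is not known.

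IL-17-producing γδ T cells, invariant natural killer T (NKT) cells and mucosal-associated invariant T (MAIT) cells acquire their effector program during development in the thymus and respond rapidly to cytokines such as IL-1, IL-18 and IL-23. The program rests on nuclear receptors of the ROR family together with c-Maf and SOX factors, and PLZF, the product of Zbtb16, is the hallmark factor of innate-like T cells in general. IL-23 acts through IL-23R to sustain the secretion of IL-17A, the cytokine for which these cells are known. Conventional CD8+ T cells are better known for interferon-γ and cytotoxic granules.

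Of the 6 genes with a start-site window at hand, those with a sequence recognized by regulators of the program were Il17a and Il23r, its cytokine and receptor. Such short sequences are common, with shares over all windows given below. The 250 bases before the start site, on the strand of the gene, are shown from RefSeq (GRCm38.p6), with capitals marking AGGTCA, the half-site of ROR receptors, and TGCTGA, the half-site of Maf proteins, on either strand. The windows are chr1:20730655-20730904 (plus strand) and chr6:67491856-67492105 (minus strand).
Il17a: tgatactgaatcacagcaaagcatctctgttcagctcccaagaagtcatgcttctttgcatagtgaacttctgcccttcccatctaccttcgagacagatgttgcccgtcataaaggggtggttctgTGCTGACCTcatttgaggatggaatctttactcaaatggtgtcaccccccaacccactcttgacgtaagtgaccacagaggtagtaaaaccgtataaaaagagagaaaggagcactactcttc
Il23r: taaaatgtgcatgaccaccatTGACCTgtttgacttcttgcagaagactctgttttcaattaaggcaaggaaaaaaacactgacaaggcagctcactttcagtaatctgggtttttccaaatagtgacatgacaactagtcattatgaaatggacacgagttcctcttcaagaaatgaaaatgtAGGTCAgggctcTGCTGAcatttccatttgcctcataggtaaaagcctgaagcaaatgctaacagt
In Il17a the Maf half-site lies at -123 to -118 from the start site and overlaps the ROR half-site on the opposite strand at -120 to -115. In Il23r a ROR half-site at -66 to -61 is followed by a Maf half-site at -54 to -49, and a second ROR half-site on the opposite strand lies at -229 to -224. The sequence AACAAT, a core bound by SOX factors, was searched as well and was in neither window. RefSeq windows of 300 bases, which run from 250 bases before to 50 bases after the start, were at hand for 6 of the 9 genes. Those of Sox13, Cd163l1, Rora and Pxdc1 held none of the 3 sequences, and those of Maf, Blk and Zbtb16 were not analysed here. Of 32817 windows of that length, 16.3% held AGGTCA, 19.5% TGCTGA and 10.7% AACAAT. The share of windows with any of the 3 was not computed, so the matches in Il17a and Il23r are not read as an excess. A match describes letters in a window and does not show that a factor was bound.

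In all 4 mice every one of the 9 genes was higher in the IL-18Rαhi library than in the flow-through library of the same mouse. The libraries of both fractions did not overlap for 7 genes, the exceptions being Il17a and Sox13. Among the 12166 genes tested (FPKM, the fragments per kilobase of transcript scaled to library size, of at least 1 averaged across the 8 libraries) 16.4% had all IL-18Rαhi libraries above the flow-through and 15.9% had all of them below it. Of 8 T-cell identity genes, named below, 6 also had all IL-18Rαhi libraries above the flow-through, so such separation was not particular to the 9 genes. The median difference of the 9 genes was 1.63 on the log2(FPKM + 1) scale, against 0.40 for the T-cell identity genes and -0.02 for all genes tested. The share of all genes tested that were higher within every mouse was not computed. The within-mouse comparisons are not adjusted for T-cell RNA, which differed most between the fractions in mouse 1. The geometric mean of Cd3d, Cd3e, Cd3g, Cd2 and Lck was 145.8 FPKM in its flow-through and 297.7 FPKM in its IL-18Rαhi library. In mice 2 to 4 it was 227.6 to 275.6 and 281.6 to 289.2 FPKM. The counts for the 9 genes restate in part how they were chosen. In bulk RNA a larger number of cells that express a gene and more RNA per cell cannot be told apart.

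**Figure D1:**
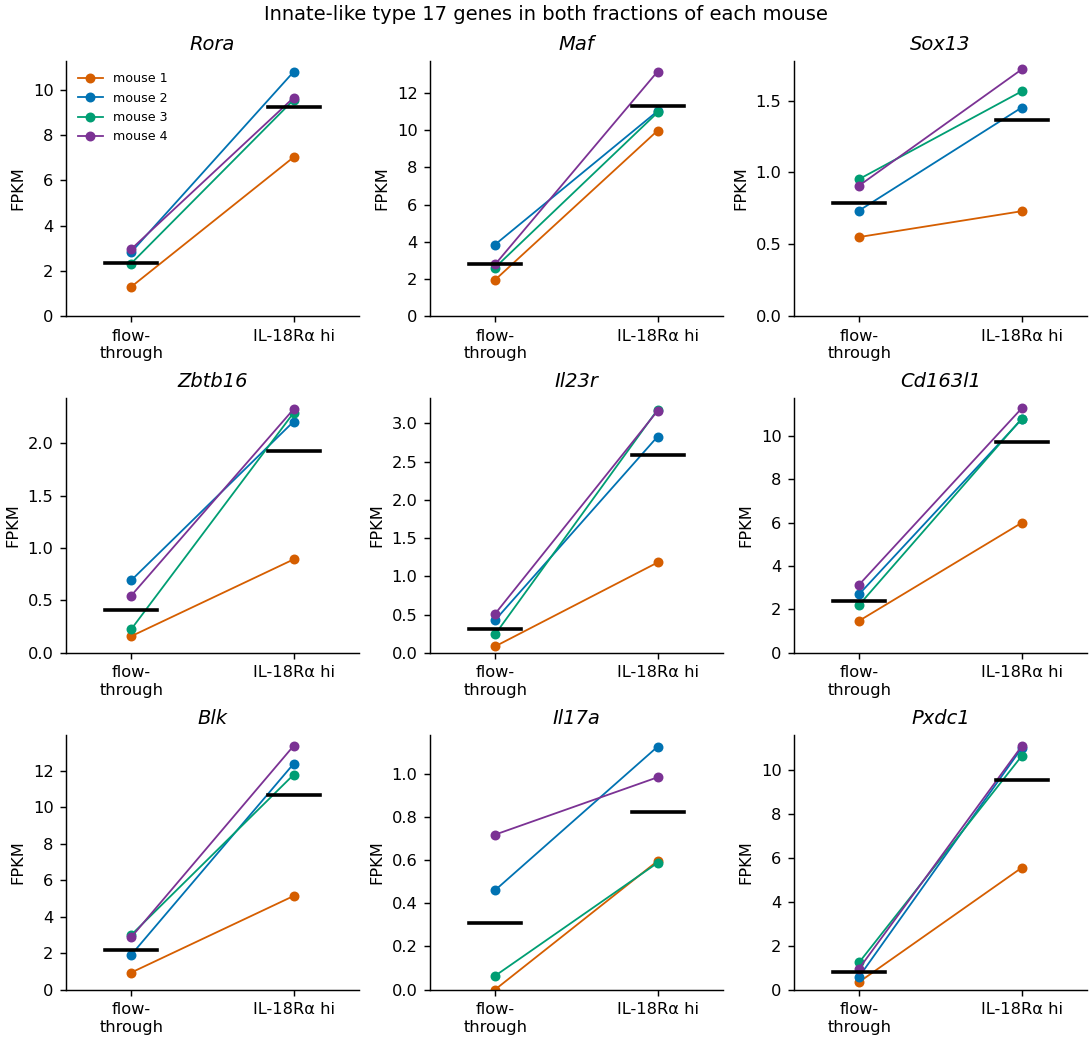
FPKM of the 9 genes (y axes, each from 0) in the flow-through and the IL-18Rαhi fraction, with a line for each of the 4 mice and a black bar for the mean of 4 libraries. Every line runs upward, and the fractions overlap for Sox13 and Il17a.

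Of the 4 transcription factors, Rora (ENSMUSG00000032238; mm10 chromosome 9, 68653786 to 69388246, plus strand) encodes RORα, a nuclear receptor of type 17 cells. It was at 1.29, 2.82, 2.33 and 2.96 FPKM in the flow-through of mice 1 to 4, whereas the IL-18Rαhi libraries were at 7.03, 10.8, 9.57 and 9.66 FPKM. The lowest IL-18Rαhi library was thus above the highest flow-through library, and the ratio of means was 3.94 (2.35 ± 0.756 and 9.27 ± 1.59 FPKM, SD, n = 4). Within mice the ratio ran from 3.26 to 5.44.

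Maf (ENSMUSG00000055435; chromosome 8, 115682942 to 115707794, minus strand) encodes c-Maf, which is required for the IL-17 fate of γδ T cells and is also expressed by macrophages and helper T cells. It was at 1.95, 3.85, 2.61 and 2.78 FPKM in the flow-through and at 9.97, 11.0, 10.9 and 13.2 FPKM in the IL-18Rαhi fraction, a ratio of means of 4.03 and a log2 difference of 1.71. The IL-18Rαhi level varied least between mice of all 9 genes relative to its mean. Maf shares its locus with the antisense gene Gm15655 (chromosome 8, 115705078 to 115707233), which ran from 0.639 to 3.07 FPKM in the flow-through and from 3.75 to 8.81 FPKM in the IL-18Rαhi fraction. The strand setting of the alignment is not given in the sources used here. Whether reads of the 2 genes were told apart where they overlap is therefore not known. Rora and Pxdc1 overlap antisense genes too, whose highest values were 0.155 and 0 FPKM.

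Sox13 (ENSMUSG00000070643; chromosome 1, 133382303 to 133424377, minus strand), an early γδ-lineage factor, differed least. It was at 0.550, 0.735, 0.953 and 0.908 FPKM in the flow-through and at 0.730, 1.45, 1.56 and 1.72 FPKM in the IL-18Rαhi fraction. The IL-18Rαhi library of mouse 1 lay within the flow-through range and the other 3 lay above it. The ratio of means was 1.74, and within mice it ran from 1.33 to 1.97.

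Zbtb16 (ENSMUSG00000066687; chromosome 9, 48654297 to 48836222, minus strand) was at 0.158, 0.691, 0.224 and 0.545 FPKM in the flow-through. In the IL-18Rαhi fraction it was at 0.892 FPKM in mouse 1 and at 2.21, 2.29 and 2.33 FPKM in mice 2 to 4. The ratio of means was 4.77 and the fractions did not overlap, but within mice the ratio ran from 3.19 to 10.2, with all flow-through values below 1 FPKM.

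Of the surface receptors, Il23r (ENSMUSG00000049093; chromosome 6, 67422932 to 67491855, minus strand) had the second highest ratio. It was at 0.0842, 0.428, 0.242 and 0.510 FPKM in the flow-through and at 1.18, 2.83, 3.18 and 3.16 FPKM in the IL-18Rαhi fraction. The ratio of means was 8.19, and the within-mouse ratio was 14.0 and 13.1 in mice 1 and 3 against 6.61 and 6.20 in mice 2 and 4. All 4 IL-18Rαhi libraries were above 1 FPKM and all 4 flow-through libraries below it.

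Cd163l1 (ENSMUSG00000025461; chromosome 7, 140218267 to 140231145, plus strand) encodes SCART1, a scavenger receptor of γδ T cells. It was at 1.48, 2.71, 2.21 and 3.14 FPKM in the flow-through and at 5.99, 10.8, 10.8 and 11.3 FPKM in the IL-18Rαhi fraction. Its within-mouse ratio was the most even of the 9 genes, from 3.59 to 4.89. The paralog 5830411N06Rik (SCART2) starts 16138 bases beyond its end, and reads shared by both genes could have been divided between them.

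Blk (ENSMUSG00000014453; chromosome 14, 63372836 to 63417037, minus strand) encodes a Src-family kinase known from B cells and from IL-17-producing γδ T cells. It was at 0.929, 1.90, 2.99 and 2.86 FPKM in the flow-through and at 5.13, 12.4, 11.8 and 13.4 FPKM in the IL-18Rαhi fraction, a ratio of means of 4.91. Of B-cell markers, Ms4a1 was at 0.880 to 4.76 FPKM in the flow-through and at 0.668 to 4.64 FPKM in the IL-18Rαhi fraction (limma adjusted p = 0.854). Summed over the 8 B-cell markers, of which Ighm made up nearly all, the level ran from 1775 to 7952 FPKM and from 3556 to 10799 FPKM and was higher in the IL-18Rαhi library of every mouse, with 1 of 7 tested genes (Cd22) higher by limma and 4 higher with the mouse as a block. The part of B cells in the level of Blk was not tested.

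Il17a (ENSMUSG00000025929; chromosome 1, 20730905 to 20734496, plus strand), the signature cytokine, was near the limit of what these libraries can measure. It was listed at 0 and at 0.461, 0.0637 and 0.718 FPKM in the flow-through and was at 0.596, 1.13, 0.588 and 0.984 FPKM in the IL-18Rαhi fraction. The fractions overlapped, since flow-through replicate 4 exceeded IL-18Rαhi replicates 1 and 3. With its single transcript of 1171 bases and the estimated depth, these values stand for about 0 to 12.3 fragments per flow-through library and 12.1 to 21.9 fragments per IL-18Rαhi library. Il17a was the 1 gene of the 9 below the minimum level, and of the other 8, Il23r, Sox13, Zbtb16 and Pxdc1 averaged less than 1 FPKM in the flow-through and passed it through their IL-18Rαhi level.

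Pxdc1 (ENSMUSG00000021411; chromosome 13, 34627834 to 34653486, minus strand), which encodes a protein with a PX domain, had the largest ratio, as its selection implies. It was at 0.344, 0.587, 1.24 and 0.958 FPKM in the flow-through and at 5.55, 11.0, 10.6 and 11.1 FPKM in the IL-18Rαhi fraction. The ratio of means was 12.2 and the log2 difference 2.55. The IL-18Rαhi library of mouse 1 was lower than the other 3, yet above every flow-through library.

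The genes fell into 2 tiers. In the IL-18Rαhi fraction Maf (11.3 ± 1.34 FPKM), Blk (10.7 ± 3.74), Cd163l1 (9.71 ± 2.49), Pxdc1 (9.56 ± 2.69) and Rora (9.27 ± 1.59) followed each other within 1 SD, so these neighbours were not separated by level. Il23r (2.59 ± 0.952), Zbtb16 (1.93 ± 0.693), Sox13 (1.37 ± 0.437) and Il17a (0.823 ± 0.274) came next, in this same order in all 4 libraries. Il23r and Zbtb16, and Zbtb16 and Sox13, differed by less than the larger SD of the pair, and Sox13 and Il17a by more than either SD. As FPKM depend on the transcript model, a difference in level between genes is approximate. In the flow-through, Pxdc1 (0.782 ± 0.396 FPKM) belonged to the lower tier, beside Sox13 (0.787 ± 0.184).

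Shares of the summed FPKM follow from how far each gene differed, and Pxdc1 was chosen for its rise, so they are given as a description. Pxdc1 provided 6.27 ± 2.40% of the summed FPKM of the 9 genes in the flow-through and 16.5 ± 1.11% in the IL-18Rαhi fraction. Sox13, the gene with the smallest ratio, provided 6.65 ± 1.34% and 2.34 ± 0.282%, although its own level was higher in the IL-18Rαhi library of every mouse. The shares of Rora were 19.1 ± 0.753% and 16.5 ± 1.93%, and those of Blk 17.2 ± 4.67% and 18.1 ± 2.88%. Libraries of the fractions did not overlap in share for Pxdc1 (at most 9.63% against at least 15.0%) and Sox13 (at least 5.18% against at most 2.57%).

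Mouse 1 stood apart in these genes. Its flow-through library was the lowest of 4 for 9 of 9 genes and its IL-18Rαhi library for 8 of 9, where 43.2% and 37.4% of all genes tested had their lowest value in these libraries. In the flow-through the 8 T-cell identity genes (Cd3d, Cd3e, Cd3g, Cd2, Lck, Trac, Cd8a and Cd8b1) were low too, at 0.537 to 0.592 times the mean of the other 3 mice. Below that range were Il17a (0), Il23r (0.214), Zbtb16 (0.325), Blk (0.360), Pxdc1 (0.371) and Rora (0.478). Cd163l1 (0.550) lay within it, and Maf (0.633) and Sox13 (0.636) lay above it. In the IL-18Rαhi fraction the T-cell identity genes were not low, at 1.00 to 1.13 times the mean of the other mice. There Blk stood at 0.410, Il23r at 0.386, Zbtb16 at 0.392, Sox13 at 0.463, Pxdc1 at 0.509 and Cd163l1 at 0.548 times. Maf (0.852) and Rora (0.702) were the least reduced. The 8 γδ T-cell markers were all lowest in mouse 1 in this fraction, with values from 0.260 times for Trdv1 to 0.589 times for Tcrg-C4. The IL-18Rαhi library of mouse 1 was also the lowest of 4 in the summed markers of CD4 T cells (24.4 against 26.6 to 41.6 FPKM), NK cells (86.9 against 102.2 to 185.4), myeloid cells (379.2 against 397.7 to 887.4) and B cells (3556 against 6379 to 10799). Summed erythroid genes were highest in mouse 1 in both fractions, at 1055 against 204.2 to 566.5 FPKM and 1146 against 117.4 to 376.5 FPKM. The part of these differences in the levels of the 9 genes was not tested. Without mouse 1, a comparison chosen after seeing the data, the median log2 difference of the 9 genes between the fractions was 1.57.

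**Figure D2:**
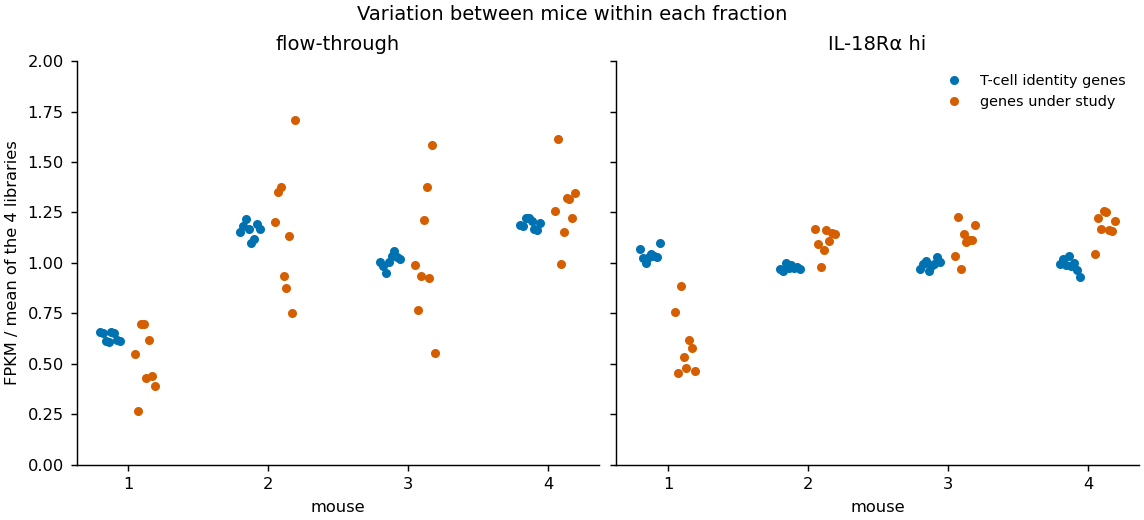
FPKM of each gene divided by the mean of the 4 libraries of the same fraction (y axis), by mouse (x axis), for the 8 T-cell identity genes (blue) and for the genes under study without Il17a (orange). In mouse 1 both groups of genes are low in the flow-through, whereas in the IL-18Rαhi fraction the orange points are low and the blue points are not.

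Other genes of the type 17 program were taken from a list of 35 that leaves out the 9 genes. Of the 32 that averaged 1 FPKM or more, 18 rose and 2 fell in the IL-18Rαhi fraction by limma, with p-values adjusted across the whole table, where 14.1% of all genes tested rose and 13.7% fell (20% rose at an unadjusted p under 0.05). With the mouse as a block 22 rose and 3 fell, against 22.2% and 22.7% of all genes. The median log2 difference of the 32 genes was 0.80. Markers of other cell types, γδ T cells among them, rose about as often. Of 40 tested, 20 rose and 1 fell, and 28 rose and 3 fell with the block, with a median log2 difference of 1.06. Scaling libraries to T-cell genes shifted the median of all genes to -0.36 and the share of calls that were higher from 50.8% to 29.2%. Under it 12 of the type 17 list were higher and 2 lower, against 535 higher and 1300 lower of the 12166 genes tested. Of the 40 markers, 16 were higher and 1 lower. Of the 18 type 17 genes that rose, Il17re, Kcnk1 and Csf2 averaged less than 1 FPKM in the flow-through and passed the filter through their IL-18Rαhi level. The type 17 list was written with results of these data known, so its count is a description.

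**Figure D3:**
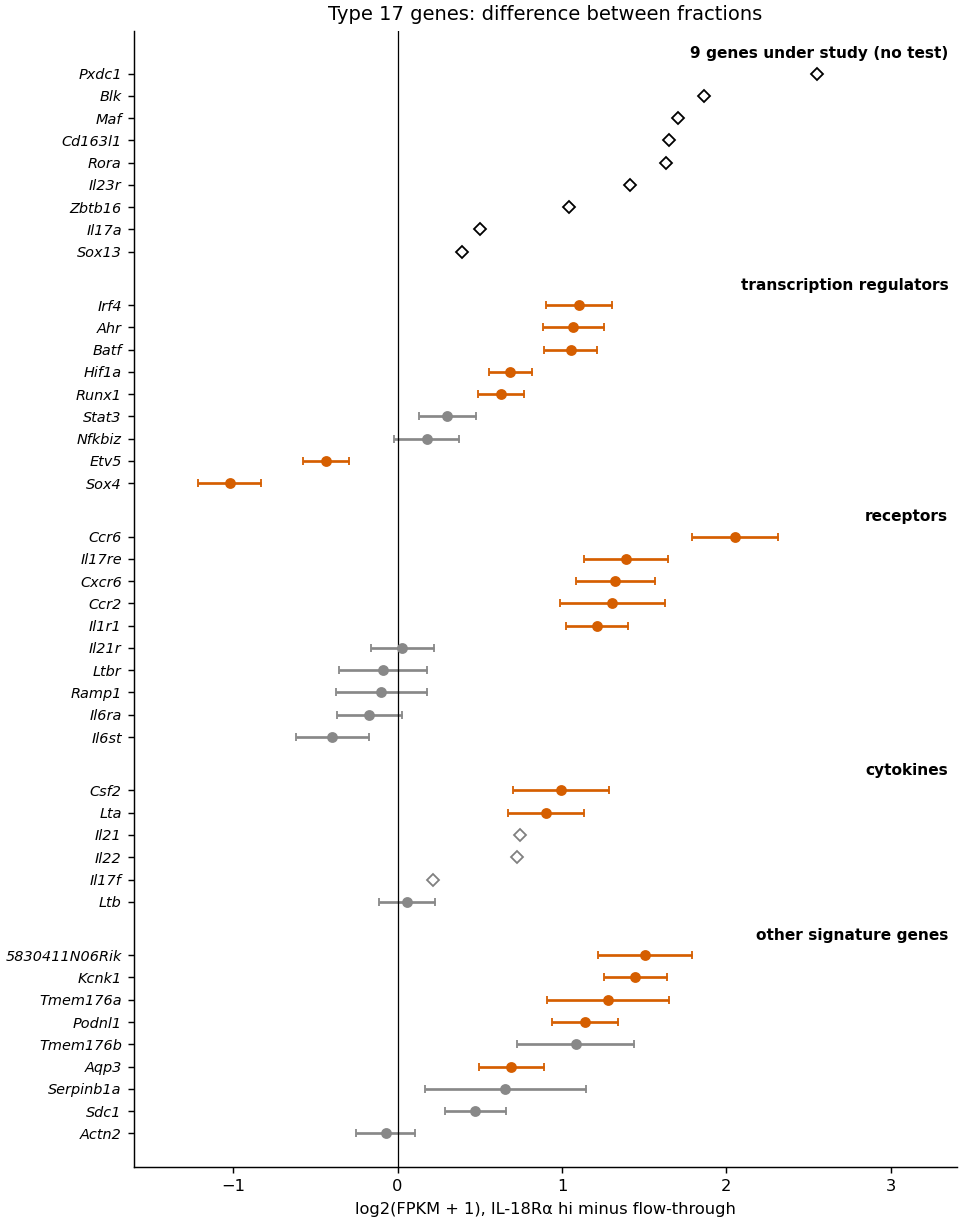
Difference between the fractions on the log2(FPKM + 1) scale (x axis) for the 9 genes under study (black diamonds, no test) and for 34 of the 35 other type 17 genes, grouped by role. Circles carry the standard error of limma and are orange at an adjusted p under 0.05, and grey diamonds mark genes below the minimum level, such as Il22. Most orange circles lie to the right of 0, and Sox4 and Etv5 lie to the left.

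Among 10 transcription regulators, 6 rose and 2 fell. Batf and Irf4, which open chromatin together at type 17 genes, went from 34.8 ± 7.96 to 71.6 ± 1.42 FPKM (log2 difference 1.05, SE 0.16, limma adjusted p = 0.0032) and from 8.09 ± 2.34 to 18.1 ± 2.20 FPKM (1.10, SE 0.20, adjusted p = 0.0063). Ahr, the aryl hydrocarbon receptor, rose from 1.77 ± 0.565 to 4.77 ± 0.877 FPKM (1.07, SE 0.19, adjusted p = 0.0051). Runx1 (0.63) and Hif1a (0.69) also rose, but with libraries scaled to T-cell genes neither passed (0.27, adjusted p = 0.306, and 0.33, adjusted p = 0.128). Sox4, which like Sox13 belongs to the SOX family and acts early in γδ development, fell from 8.29 ± 2.32 to 3.50 ± 0.579 FPKM (log2 difference -1.02, SE 0.19, adjusted p = 0.0068) without overlap of the libraries. The mean of Sox13 lay in the other direction, but its libraries overlapped and it was not tested, so the 2 genes are not contrasted. Etv5 was lower (-0.43, adjusted p = 0.0470), a call lost without flow-through replicate 1, 3 or 4 or IL-18Rαhi replicate 1, 2 or 4 (adjusted p 0.0685 to 0.122). Stat3 (0.30) passed with the mouse as a block (limma adjusted p = 0.0267) and not without it (0.222), and Nfkbiz (0.18) passed in neither.

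Of 10 receptors 5 rose. Ccr6, the receptor for CCL20 that marks type 17 cells, went from 2.13 ± 0.738 to 12.2 ± 3.92 FPKM (log2 difference 2.05, SE 0.26, limma adjusted p = 0.0017). It was at 1.22 to 3.02 FPKM in the flow-through, and of the IL-18Rαhi libraries that of mouse 1 (6.87 FPKM) was below the others (11.7 to 15.2 FPKM). Il17re, a chain of the receptor for IL-17C, went from 0.866 ± 0.410 to 3.96 ± 1.54 FPKM (1.39, SE 0.26, adjusted p = 0.0064). Il1r1, the signaling receptor of IL-1, went from 1.30 ± 0.326 to 4.38 ± 1.13 FPKM (1.21, SE 0.19, adjusted p = 0.0033). The chemokine receptors Cxcr6 (1.33) and Ccr2 (1.31) also rose, and Ccr2 was not past the threshold without flow-through replicate 3 or IL-18Rαhi replicate 2 or 4 (adjusted p 0.0555 to 0.0565). Receptors for IL-6 did not rise, with Il6ra at -0.17 and Il6st, the shared signaling chain gp130, at -0.40. Il6st passed as lower with the mouse as a block (limma adjusted p = 0.0159), on leaving out flow-through replicate 1 (-0.61), and with scaling to T-cell genes (-0.75). Il21r (0.03), Ltbr (-0.09) and Ramp1 (-0.10) did not pass the test and took the opposite sign under at least 1 other setting.

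Of 6 cytokines, 3 were below the minimum level. Il22 was at 0 to 0.187 FPKM in the flow-through and 0.321 to 1.37 FPKM in the IL-18Rαhi fraction, without overlap. Il17f, which lies 42649 bases beyond Il17a on the other strand, was at 0.167 to 0.417 and 0.312 to 0.752 FPKM, with overlap. Il21 was at 0.285 to 0.593 and 1.20 to 1.83 FPKM, without overlap. The levels of Il17a, Il17f and Il22 therefore reached at most 1.37 FPKM in any library. Csf2, which encodes GM-CSF, rose from 0.576 ± 0.218 to 2.31 ± 1.16 FPKM (1.00, SE 0.29, limma adjusted p = 0.0351) and Lta from 6.55 ± 2.32 to 12.7 ± 2.14 FPKM (0.90, SE 0.23, adjusted p = 0.0215). The call for Csf2 was lost without flow-through replicate 1, 3 or 4 or IL-18Rαhi replicate 2, 3 or 4 (adjusted p 0.0573 to 0.0957) and that for Lta without IL-18Rαhi replicate 3 or 4 (0.0548 and 0.0623). Ltb, at 265.5 ± 61.4 and 270.2 ± 16.8 FPKM, did not pass the test (0.06, limma adjusted p = 0.824).

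Among 9 further genes known from IL-17-producing γδ T cells, 5 rose and none of the others fell past the threshold. The neighbour and paralog of Cd163l1, 5830411N06Rik, went from 3.43 ± 1.43 to 11.3 ± 2.96 FPKM (log2 difference 1.50, SE 0.28, limma adjusted p = 0.0070), a ratio of 3.30 beside 4.07 for Cd163l1. Kcnk1, a potassium channel, went from 0.228 ± 0.113 to 2.41 ± 0.787 FPKM (1.45, SE 0.19, adjusted p = 0.0019), and Podnl1 from 6.16 ± 1.75 to 14.5 ± 2.08 FPKM (1.14, SE 0.20, adjusted p = 0.0054). The calls for Tmem176a (1.28) and the water channel gene Aqp3 (0.69) depended on single libraries, as Tmem176a was lost without flow-through replicate 1 or 3 or IL-18Rαhi replicate 2, 3 or 4 (adjusted p 0.0608 to 0.0942) and Aqp3 without flow-through replicate 3 or any 1 of the IL-18Rαhi replicates (0.0520 to 0.0923). Tmem176b (1.08, limma adjusted p = 0.0520), Serpinb1a (0.66, 0.342) and Sdc1 (0.47, 0.0898) passed with the mouse as a block (adjusted p = 0.00024, 0.00097 and 0.0191). Tmem176b also passed without flow-through replicate 2 or IL-18Rαhi replicate 1 (0.0279 and 0.0307), and Sdc1 without IL-18Rαhi replicate 1 (0.0114). Actn2 (-0.07) did not pass.

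Of 8 γδ T-cell marker genes, 4 rose by limma, where 14.1% of all genes tested rose, and 6 did with the mouse as a block (22.2% of all genes). Their summed level was 78.3 to 114.8 FPKM in the flow-through and 103.9 to 230.2 FPKM in the IL-18Rαhi fraction. Among them were V segments of the Vγ6 Vδ1 receptor carried by fetal IL-17-producing γδ T cells, with Trdv4 going from 1.14 ± 0.847 to 6.93 ± 2.35 FPKM (log2 difference 1.92, SE 0.32, limma adjusted p = 0.0044) and Tcrg-V6 from 1.35 ± 0.728 to 4.83 ± 1.87 FPKM (1.29, SE 0.29, adjusted p = 0.0128). Tcrg-V4 rose as well (1.41, adjusted p = 0.0287). Tcrg-C1, at 35.6 ± 18.0 and 40.8 ± 9.61 FPKM, passed in neither fit (limma adjusted p = 0.563, and 0.517 with the block) and was lower in the IL-18Rαhi library in mice 1 (53.9 and 26.5 FPKM) and 3 (46.8 and 45.0 FPKM). Trdv1, at 5.34 ± 2.09 and 8.93 ± 4.24 FPKM, passed in neither fit (limma adjusted p = 0.330, and 0.0542 with the block). The δ constant gene Trdc went from 8.01 ± 3.50 to 17.3 ± 5.91 FPKM, a ratio of 2.16, with overlap of the libraries (limma adjusted p = 0.0485).

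Of the 4 segments of invariant NKT and MAIT receptors, Traj18 and Traj33 were listed at 0 in all 8 libraries and Trav11 was listed at 0 in all libraries except flow-through replicate 4 (1.08 FPKM). A listed 0 for a segment does not show that such cells were absent. Trav1 was at 1.04 to 7.69 FPKM and 6.64 to 8.71 FPKM, which did not pass the test without the block (limma adjusted p = 0.0529) and did with it (0.0200). All 3 CD4 T-cell genes rose, with Cd4 at 0.310 to 1.28 FPKM in the flow-through and 1.80 to 7.90 FPKM in the IL-18Rαhi fraction, and their summed level was 3.23 to 8.63 and 24.4 to 41.6 FPKM. Of 6 NK-cell genes 5 rose (summed 21.6 to 44.1 and 86.9 to 185.4 FPKM), and of 7 tested myeloid genes 5 rose and 7 did with the block (114.7 to 390.7 and 379.2 to 887.4 FPKM). The selection of CD8+ cells is meant to remove such cells, and their part in the levels of the 9 genes was not tested. Of the markers that rose, Cd4, Klra8, Adgre1 and C1qa averaged less than 1 FPKM in the flow-through. They passed the filter through their IL-18Rαhi level, as did C1qb, which rose only with the block. Cd8a was detected in every library, at 179.2 to 344.7 and 360.8 to 385.0 FPKM, which does not measure the purity of the fractions. The B-cell gene Ighm was at 1749 to 7896 and 3513 to 10726 FPKM.

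**Figure D4:**
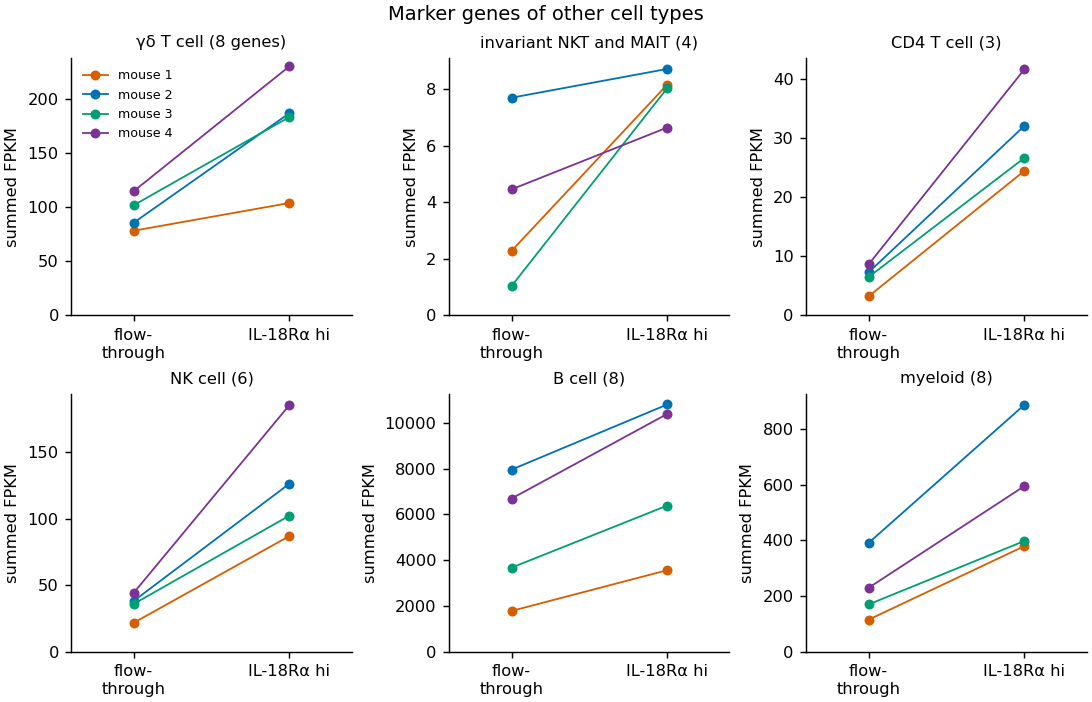
Summed FPKM (y axes, each from 0) of marker genes of 6 other cell types in both fractions, with a line for each of the 4 mice. All 6 sums run upward in every mouse, and mouse 1 has the lowest IL-18Rαhi value for 5 of them, the exception being the invariant NKT and MAIT segments. The B-cell sum is nearly all Ighm.

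Likeness to the 9 genes was also sought within the fractions, where the contrast between them plays no part. Each of the 8 genes above the minimum level was expressed as a deviation from its fraction mean in the 8 libraries. Maf followed the mean of the other 7 genes least closely (Pearson r = 0.62) and Cd163l1 most closely (r = 0.98), with 0.85 for Pxdc1, 0.88 for Rora, 0.90 for Zbtb16, 0.91 for Sox13, 0.92 for Blk and 0.94 for Il23r. Of 9055 other genes that averaged 5 FPKM or more, antigen receptor segments left out, the 10 with the most similar deviations were Zbtb4, Tha1, Slc12a9, Ccnd1, Ifi205, Mlxip, Naaa, Nfkb2, Cbl and Gm43198 (r from 0.97 to 0.99). The points share mice and libraries, and for each of these 10 genes mouse 1 had the lowest value in both fractions. In the IL-18Rαhi fraction Naaa was at 28.8 FPKM in mouse 1 and at 56.8 to 83.0 FPKM in the other mice, and Ifi205 at 5.28 and at 12.1 to 17.4 FPKM.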

How the data were processed

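RNA was measured in 8 libraries, 4 per fraction. The deposited values are FPKM that the authors computed from stranded paired-end poly(A) libraries with TopHat on mm10 and Cufflinks 2.1.1, with multi-read and fragment bias correction and default options otherwise. The annotation release is not given in the sources used here. Of the gene identifiers, 98.9% were in GENCODE M21, which gave coordinates and transcript lengths, and RefSeq gave promoter sequences. Of entries that share a name the one with the higher mean was used.

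The files hold no counts. Depth was estimated from the value that 1 fragment adds to low genes with a single transcript, as 14594000 to 17652000 fragments per library. Summed FPKM ran from 656715 to 711678 per library. No counting interval was applied.

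log2(FPKM + 1) values of the 12166 genes that averaged 1 FPKM or more were fitted without a block by limma 3.58.1 (R 4.3.3) with a mean-variance trend, and p-values were adjusted by Benjamini-Hochberg at a threshold of 0.05. A fold on this scale understates the change of low genes. The labels state that both fractions were taken from each mouse, and libraries with the same number deviated together (r = 0.66, 0.59, 0.31 and 0.47), so the number was used as the block of an alternative fit. Groups came from the labels. Other alternatives were a pseudocount of 0.1, other filters, median-ratio and T-cell scaling (geometric mean of Cd3d, Cd3e, Cd3g, Cd2 and Lck) and leaving out each library. The fit was tested on simulated data.

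The genes and lists were chosen with earlier results of these data known. Named genes were the 9 genes, genes of the pathway lists past the threshold or needed to describe their group, and the 10 genes most similar in their deviations within fractions (mean of at least 5, antigen receptor segments left out). Marker genes of other cells were named after their values were seen. Genes not reported here by name are part of the counts.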

Additional observations from a re-analysis of the deposited data

Results flagged for a closer look

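Among the named genes, Dixon's test at the 95% level was applied to 86 groups of 4 libraries, and in 9 a single library lay far from its group, where chance gives about 1 in 20, or 4.3. Every one of these was a replicate 1 library. In IL-18Rαhi replicate 1, Cd163l1 had 5.99 FPKM, compared with 10.8 to 11.3 FPKM for replicates 2 to 4, Pxdc1 at 5.55 against 10.6 to 11.1, Zbtb16 at 0.892 against 2.21 to 2.33, 5830411N06Rik at 6.92 against 12.5 to 13.2, Irf4 at 14.8 against 19.1 to 19.2 and Il6st at 10.9 against 15.8 to 16.1. In flow-through replicate 1, Il1r1 had 0.811 FPKM, compared with 1.44 to 1.48 FPKM, Il21r at 32.7 against 58.1 to 63.0 and Aqp3 at 4.58 against 8.48 to 9.27. The genes of one library are not independent of each other.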

How the results depend on the processing

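The log2 differences of the 9 genes kept their sign under every alternative run, which their choice in part fixes. Their median was 2.005 with a pseudocount of 0.1 and 1.46 to 1.75 without 1 library. The number of genes higher overall was 535 under T-cell scaling, 2705 with the replicate block and 1124 to 1802 without 1 library. The number lower was 2763 with the replicate block and 940 to 1781 without 1 library. Of the other type 17 genes, 13 to 19 were higher and 1 to 2 lower without 1 library, and 1 was lower with no filter or with a mean of at least 5 FPKM. Of the 40 other cell-type markers tested, 20 were higher and 1 lower. At a mean of at least 5 FPKM 13 of 29 were higher, and 3 of the 40 were lower with the replicate block. Without 1 library 15 to 22 were higher and 1 lower. The smallest of these counts without 1 library came from fits with fewer samples, among them those without flow-through replicate 3 (940 lower) and IL-18Rαhi replicate 2 (1124 higher, 956 lower) or 4 (1129 higher, 973 lower). Signs reversed for genes that did not pass the test. Under T-cell scaling these were Stat3 (-0.063), Nfkbiz (-0.17), Il21r (-0.34) and Ltb (-0.32), and without mouse 1 Il21r (-0.16) and Ltb (-0.11). Without 1 library Nfkbiz ran from -0.022 to 0.29, Il21r from -0.18 to 0.12 and Ltb from -0.12 to 0.16 (negative without flow-through replicate 1), Ltbr from -0.27 to 0.10 and Ramp1 from -0.28 to 0.081 (positive without flow-through replicate 2 or IL-18Rαhi replicate 1) and Actn2 from -0.20 to 0.061 (positive without flow-through replicate 4). Etv5, Csf2, Tmem176a and Aqp3 did not pass with no filter or under T-cell scaling, nor Lta under T-cell scaling. Causes were not tested. The replicate block changed no call of a named type 17 gene beyond those given with the results. Depth limits Il17a, at no more than 21.9 estimated fragments per library.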

Other observations

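Of 4 genes listed for group 3 innate lymphoid cells, Nrp1 rose from 4.34 ± 1.45 to 15.5 ± 1.33 FPKM (log2 difference 1.66, SE 0.18, limma adjusted p = 0.00094) and Cd83 from 4.48 ± 1.63 to 11.5 ± 2.67 FPKM (1.22, SE 0.25, adjusted p = 0.0093), whereas Kit, a receptor of progenitors, mast cells and such lymphoid cells, fell from 32.3 ± 4.02 to 14.4 ± 2.28 FPKM (-1.12, SE 0.13, adjusted p = 0.0014) and Il22 was below the minimum level. T cells and myeloid cells also express Nrp1 and Cd83. None of the 8 T-cell identity genes passed the test without the block (5 erythroid genes likewise), and 2 T-cell identity genes were higher and 2 erythroid genes lower with it. This does not show equal levels, as 6 of the 8 T-cell identity genes were higher in the IL-18Rαhi fraction without overlap of the libraries. The median log2 difference was 0.40 for the T-cell identity genes and -0.46 for the erythroid genes, of which none separated the fractions. The summed erythroid level was 204.2 to 1055 FPKM in the flow-through and 117.4 to 1146 FPKM in the IL-18Rαhi fraction.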
